A study of Mus musculus with 2 samples.

Results

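The acetyltransferase Mof works in 2 multiprotein complexes, MSL and NSL, and 7 genes that encode subunits of these complexes were examined in ChIP-seq of Msl1 and Nsl1. They are Msl1 and Msl2 of MSL, Myst1 (Kat8), the gene of Mof itself, and 1700081L11Rik (the annotation's name for Kansl1, the gene of Nsl1), Mcrs1, Phf20 and Wdr5 of NSL. The rule that lists them names subunit genes and uses no reads, but the list was made with earlier results of these data known and leaves out other subunit genes. They are 7 of 22359 protein-coding genes with an annotated transcription start site (TSS) on the nuclear chromosomes of mm9. Both libraries were made from wild type mouse embryonic stem cells (mESCs) labelled E14, at passage 26, on the 129P2/OlaHsd background. Chromatin was cross-linked with formaldehyde, sheared to between 200 and 500 bp and precipitated with the rabbit polyclonal antibody 3208 against Msl1 or 3130 against Nsl1. There was 1 library per antibody, and a difference between antibodies is therefore one between 2 libraries, for which no test was made. No Input library was used here.

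Mof acetylates histone H4 and takes its targets from the complex it sits in. Msl1 is the scaffold of MSL, Msl2 its ubiquitin ligase subunit, and Nsl1 the scaffold of NSL. Both complexes associate with active genes, and NSL is best known at promoters of housekeeping genes. The question asked of the 7 genes was whether the complexes that they encode were found at their own promoters, with the promoter reads told apart from reads over the exons that code for the antigens.

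The deposited data held 23888517 aligned reads for Msl1, 50 bases long, and 26084098 for Nsl1, 36 bases long. Of these, 19483142 and 24883001 nuclear reads with a distinct position and strand were counted. Each was moved towards the centre of its fragment, by 109 bases for Msl1 and 66 bases for Nsl1, from fragment lengths of 219 and 132 bases estimated from the distance between strands. Of the marker genes of mESCs, 6 of 8 had a TSS at 2 times the local level or more in the Msl1 library and 1 of 8 in the Nsl1 library, against 3 of 8 and 1 of 8 for markers of other cell types, and 45.8% and 41.2% of all protein-coding genes. At 3 times the local level both marker lists had 2 of 8 in the Msl1 library, beside 23.6% of all protein-coding genes. In the Nsl1 library both had 0 of 8, beside 24%. ChIP reads measure binding and not RNA, so the cell type could not be checked from these markers.

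The promoter ratio of a TSS was its read density within 500 bases, divided by the density in the surroundings of that TSS between 5 and 50 kb away, within 1 library. The reference TSS of a gene was the start of its protein-coding transcript with the longest coding sequence. Intervals in parentheses are exact 95% intervals and cover counting error only. Reads wholly inside the bases that code for an antigen were left out, as described below. In the Msl1 library 2 of the 7 genes, Msl2 and Kansl1, reached a ratio of 3, beside 23.6% of all protein-coding genes. In the Nsl1 library 3 of the 7, Msl2, Myst1 and Mcrs1, reached it, beside 24% of all protein-coding genes. Msl2 was the member that reached it in both with this window, and its Nsl1 ratio was below 3 with windows of 250 and of 2000 bases on each side, as given below. The median ratio of the members was 2.23 in the Msl1 library and 2.56 in the Nsl1 library, and the medians over all protein-coding genes were 1.85 and 1.70. At a ratio of 2, 4 of the 7 members passed in each library, beside 45.8% of all genes for Msl1 and 41.2% for Nsl1. At a ratio of 4, 1 of the 7 passed in each, beside 9.98% and 15.3%. The Nsl1 count at a ratio of 3 was 1 with a window of 1000 bases on each side, beside 13.6% of all genes, and 0 with 2000 bases, beside 4.10%. It was 4 against the level of the whole genome, beside 33.6%, at the most upstream TSS, beside 24%, and with surroundings from 10 to 100 kb, beside 24.1%, where Wdr5 reached 3.08. The Msl1 count was 5 against the level of the whole genome, beside 42% of all genes, and 1 at the most upstream TSS of each gene, beside 23.2%. Against the genome level the Msl1 ratio was 8.98 for Kansl1, 5.85 for Wdr5, 4.22 for Mcrs1, 2.72 for Myst1 and 2.18 for Phf20, and the Nsl1 ratio was 7.99 for Mcrs1, 6.18 for Wdr5, 6.08 for Myst1 and 1.71 for Msl1, since the surroundings of these genes held more reads than the genome as a whole. None of the 13 genes described here had an annotated TSS of another gene within 1 kb of its reference TSS.

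**Figure D1:**
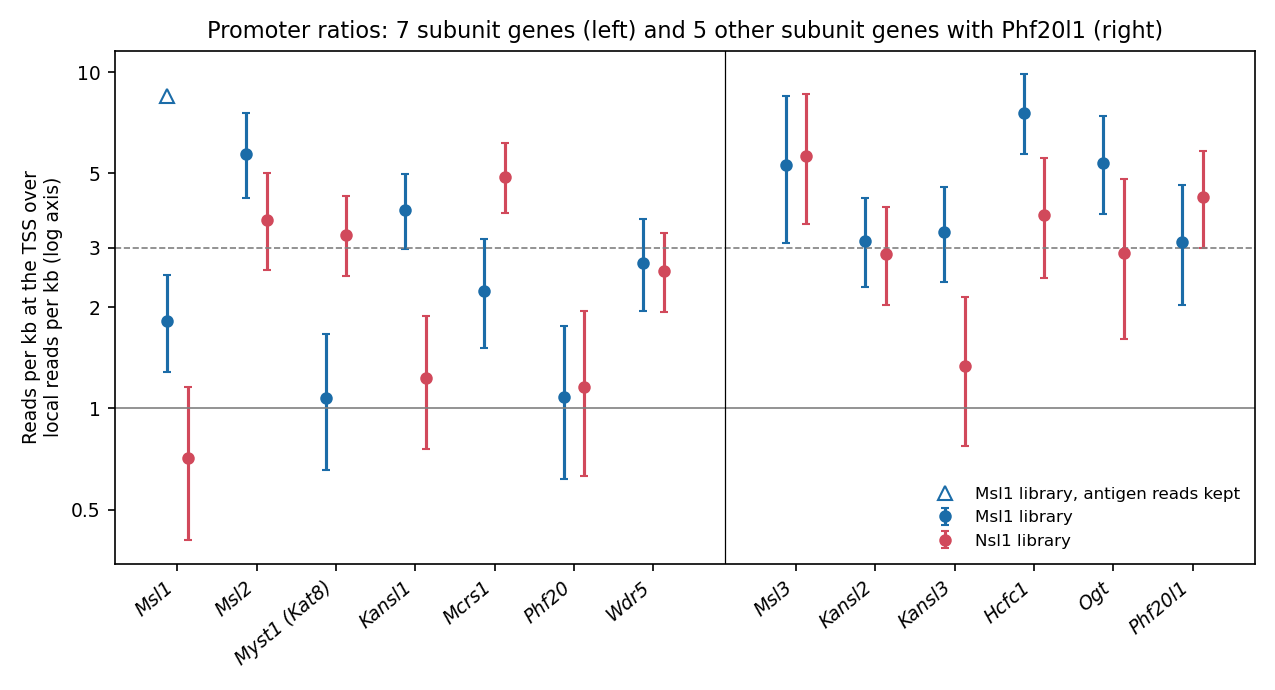
Promoter ratio at the reference TSS (log axis) for the 7 members on the left and 5 other subunit genes with Phf20l1 on the right, with the Msl1 library in blue and the Nsl1 library in red. Points are ratios, bars are exact 95% counting intervals, the dashed line is at 3, and the open triangle is the gene Msl1 in the Msl1 library before antigen reads were left out. With this window of 500 bases on each side Msl2 lies above 3 in both libraries, whereas the gene Msl1 lies at 1.81 and 0.710 once the antigen reads are out.

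The gene Msl1 lies on the plus strand of chromosome 11, with its reference TSS at 98656830 and its start codon at 98657145, 315 bases further in exon 1. The antibody was raised against residues 3 to 210 of the protein, which in this transcript are coded by 624 bases of exon 1 at chr11:98657151-98657774. With the antigen reads kept, the promoter window held 178 distinct reads of the Msl1 library, a ratio of 8.49 (7.24 to 9.91), and 18 reads of the Nsl1 library, a ratio of 0.799 (0.472 to 1.27). Most of the Msl1 reads in this window lay inside the antigen bases: without them 38 reads were left, a ratio of 1.81 (1.28 to 2.50) at the 49th percentile of all protein-coding genes. In the Nsl1 library 16 reads were left, a ratio of 0.710 (0.405 to 1.16). These ratios divide the reads left by the whole window, of which 180 bases code for the antigen and could hold few reads once antigen reads were out, so they and the percentile are lowered. Divided by the other 821 bases, the ratios were 2.21 (1.56 to 3.05) for Msl1 and 0.866 (0.494 to 1.41) for Nsl1. As a further count, when only reads lying wholly upstream of the start codon were counted, a choice made after the data were seen, the ratio was 1.56 (1.01 to 2.31) in the Msl1 library, from 25 reads, and 0.740 (0.394 to 1.27) in the Nsl1 library, from 13 reads. For the Msl1 library the intervals of all 3 counts lay above 1, and for the Nsl1 library all 3 held 1. The 3 counts share reads, so they do not support each other. Of the 6 annotated TSSs, those 275 and 284 bases downstream had Msl1 ratios of 1.05 (0.656 to 1.59) and 1.00 (0.619 to 1.54). Their Nsl1 ratios were 0.355 (0.153 to 0.702) at both. Antigen reads were left out of these windows too, which hold more antigen bases than the window of the reference TSS. The ratios of both libraries divide by the whole windows, so they are lowered further. No value over the bases left was computed, and the Nsl1 ratios below 1 are not read as a depletion. The TSSs further downstream had Msl1 ratios between 0.839 and 1.15 and Nsl1 ratios between 0.821 and 0.938, with every interval holding 1. At the reference TSS the Msl1 ratio was 0.954 (0.457 to 1.76) in windows of 250 bases on each side. Chromosome 11 carried 12.7 Msl1 reads per kb against 7.34 over the genome. It was raised in the Nsl1 library too, with 15.8 reads per kb against 9.37. Set against the level of the whole genome the Msl1 ratio was 5.17.

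The reads over the antigen bases of Msl1 formed a block with sharp borders. In the Msl1 library 484 distinct reads lay wholly inside the 624 bases, against 45 in the flanks of the same length on both sides, a density ratio of 21.5 (15.8 to 29.9). The 2 strands were about equal, with 247 plus and 237 minus reads. These reads filled 42.1% of the possible starts, so that counting each position once can lower the value. With all 837 reads the ratio was 34.9 (26.1 to 47.7), which counts any PCR copies as separate reads. How much of the rise came from either was not tested. In the Nsl1 library 10 reads lay inside and 30 in the flanks, a ratio of 0.667 (0.291 to 1.40). The stretch covered by at least 5 reads of the Msl1 library ran from 98657144 to 98657773, a length of 630 bases, which starts 1 base before the start codon and ends 1 base before the last base of the stated antigen. In bins of 100 bases from the start codon, the first 6 bins held between 64 and 94 reads each, and the 8 bins around them held between 0 and 10. The Nsl1 library held 0 to 4 reads in each of the same 6 bins. The coding part of the exon goes on for 145 bases after the last covered base, without the excess.

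The borders are shown on the mm9 plus strand, because the covered stretch begins next to the start codon, 7 bases before the stated antigen, and ends inside the exon at the end of the antigen. Capitals mark the bases from the start codon on, at chr11:98657115-98657204, and the last 60 covered bases, at chr11:98657714-98657833.
Msl1 exon 1, left border: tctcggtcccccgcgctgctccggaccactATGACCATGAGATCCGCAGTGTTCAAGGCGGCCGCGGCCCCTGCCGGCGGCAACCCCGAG
Msl1 exon 1, right border: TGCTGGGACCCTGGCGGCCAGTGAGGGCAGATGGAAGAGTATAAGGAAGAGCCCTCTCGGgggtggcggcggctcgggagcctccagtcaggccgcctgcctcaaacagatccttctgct

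The listed cloning primers named for the Msl1 fragment did not match this stretch. Their mouse parts of 22 and 20 bases were found in the reference transcript at residues 290 to 494, in exons 2 to 5. The 4 coding blocks between them held 7 reads of the Msl1 library against 22 in their flanks, a ratio of 0.636 (0.230 to 1.54), and 11 reads of the Nsl1 library against 18, a ratio of 1.22 (0.522 to 2.73). No excess was thus seen in either library over the bases between these primers. Of these exons, exon 3 lies partly in sequence that occurs elsewhere, with 89.2% of its 50-base words and 81.6% of its 36-base words present once in mm9. In exon 1 all words of both lengths occur once.

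Kansl1 also lies on chromosome 11, on its minus strand, so its ratios against the genome level share that chromosome's raised level. Its reference TSS is at 104303605, and 7 different TSSs are annotated over 127562 bases. At the reference TSS the Nsl1 library, which carries the antibody against the gene's own product, held 21 reads, a ratio of 1.23 (0.759 to 1.89) at the 30.6th percentile, and 2.24 against the level of the whole genome. It was 0.819 (0.329 to 1.69) with a window of 250 bases on each side and 1.47 (1.08 to 1.94) with 1000 bases. The Msl1 library held 66 reads there, a ratio of 3.88 (2.98 to 4.96) at the 88.8th percentile. At the TSS 415 bases upstream, 104304020, the Nsl1 ratio was its highest in the gene, 2.29 (1.63 to 3.15), and the Msl1 ratio was 2.94 (2.17 to 3.89). At the TSS 589 bases downstream, 104303016, the Msl1 ratio was its highest, 5.26 (4.20 to 6.52) from 89 reads, whereas the Nsl1 ratio was 0.763 (0.406 to 1.31) from 13 reads. Within this promoter, therefore, the highest Nsl1 value lay upstream of the highest Msl1 value. The most upstream TSS, 104330175, lies 26570 bases away and had ratios of 2.02 (1.39 to 2.83) for Msl1 and 1.62 (1.07 to 2.37) for Nsl1. The remaining upstream TSSs, 104329305 and 104329068, had Msl1 ratios of 1.43 and 1.61 and Nsl1 ratios of 1.09 and 1.33. The TSS of a transcript without coding bases, 100992 bases downstream at 104202613, had 0.941 and 0.877.

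The antigen of the Nsl1 antibody was the C-terminal region, and the listed primers placed it at the far end of the gene. As for Msl1, the stated residues and the listed primers did not name the same bases. Read in the reference transcript, the stated residues start 56 and end 55 residues before those between the primers, and 659 of the 828 bases that code for them lie between the primers. Here the primers were used, and the residues are given as a second choice, made after the data were seen. The mouse parts of the primers, 20 bases each, bounded residues 818 to 1092 and 824 coding bases in exons 10 to 15 of the reference transcript, from 104203750 down to 104196316. In the Nsl1 library 270 distinct reads lay wholly inside these 6 blocks, against 16 in their flanks, a density ratio of 33.8 (20.4 to 59.9). The plus strand held 121 of them and the minus strand 149. In the Msl1 library 11 reads lay inside and 13 in the flanks, a ratio of 1.69 (0.686 to 4.09). With the stated residues the Nsl1 library held 199 reads inside and 18 in the flanks, a ratio of 22.1 (13.6 to 38.1), and the Msl1 library 11 and 20, a ratio of 1.1 (0.476 to 2.41). Counted over whole exons, exons 11, 13, 14 and 15 held 37, 32, 95 and 82 Nsl1 reads, or between 20.5 and 21.8 reads per 100 possible starts. Exon 12, with 58 bases, held 8 reads. Exon 10, of which the primers take in 74 of 149 bases, held 23 reads.

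The introns between these exons did not share the excess. Over exons 11 to 14 the Nsl1 library held 172 reads inside the exons, 21.2 per 100 possible starts, and 25 reads across a border between exon and intron, 4.46 per 100. The density inside was 4.74 times (3.11 to 7.54) that across the borders. Of the 25 reads, 15 reached at most 3 bases into the intron. The 10 that reached 4 bases or more came to 1.95 per 100 possible starts, and the flanks held 0.677 per 100. In the Msl1 library the corresponding densities were 1.29 inside, 1.40 across the borders and 0.571 in the flanks.

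The borders of the cloned part are shown as the minus strand reads, 5′ to 3′, because the reads start and stop there inside exons. Capitals mark the forward primer's bases in exon 10 (chr11:104203691-104203810), all of exon 11 (chr11:104199400-104199601, with 40 bases of intron on each side) and the reverse primer's site in exon 15 (chr11:104196295-104196375). Nsl1 reads at a depth of 5 or more ended at 104203753 in exon 10, 3 bases outside the forward primer, and at 104196318 in exon 15, 2 bases inside the reverse primer.
Kansl1 exon 10, primer border: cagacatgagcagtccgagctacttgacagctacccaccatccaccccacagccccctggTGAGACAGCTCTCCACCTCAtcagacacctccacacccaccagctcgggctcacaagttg
Kansl1 exon 11 with its borders: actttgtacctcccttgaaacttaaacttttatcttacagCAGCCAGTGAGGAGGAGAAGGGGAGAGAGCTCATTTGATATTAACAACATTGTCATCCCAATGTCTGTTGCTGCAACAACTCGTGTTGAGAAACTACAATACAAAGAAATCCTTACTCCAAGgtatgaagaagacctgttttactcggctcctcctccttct
Kansl1 exon 15, primer border: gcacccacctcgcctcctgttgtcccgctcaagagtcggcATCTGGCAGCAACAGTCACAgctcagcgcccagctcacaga

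Exon 2 of Kansl1, which holds the start codon, carried a further block in the Nsl1 library that neither the stated antigen nor the listed primers cover. It was noticed while the data were examined. In the coding part of exon 2, at chr11:104285236-104286524, 211 Nsl1 reads lay wholly inside 1289 bases and 31 in the flanks, a ratio of 13.6 (9.31 to 20.5). The Msl1 library held 27 reads inside and 46 in the flanks, a ratio of 1.17 (0.702 to 1.93). The Nsl1 reads lay in the first 800 coding bases: the 8 bins of 100 bases from the start codon held between 15 and 34 reads each and 203 in all. The 11 bins around them held 17 in all and at most 4 each, including those over the rest of the exon. At a depth of 5 or more, the rule used for exon 1 of Msl1, the longest covered stretch was shorter, 361 bases from 104286148 to 104286508, and began 16 bases after the first coding base. The highest depth in exon 2 was 15, against 99 in exon 1 of Msl1. The start codon is shown on the minus strand at chr11:104286465-104286554, with the bases from the start codon on in capitals.
Kansl1 exon 2, start codon: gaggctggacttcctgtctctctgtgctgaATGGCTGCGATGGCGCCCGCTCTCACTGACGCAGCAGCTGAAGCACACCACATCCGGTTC

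Coding exons 3 to 9 of Kansl1 lie between both blocks and held 19 Nsl1 reads against 24 in their flanks, a ratio of 1.58 (0.820 to 3.02). All words of read length in the coding exons of Kansl1 occur once in mm9, so the exons without an excess can be read as well as the others. Exon 2 lies in the range from which the local level of the Kansl1 promoter was taken. With those reads left out, a choice made after the data were seen, the Nsl1 ratio at the reference TSS was 1.43 (0.880 to 2.19). Whether the reads over the exons of Msl1 and Kansl1 came from chromatin or from another source of these sequences was not tested.

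**Figure D2:**
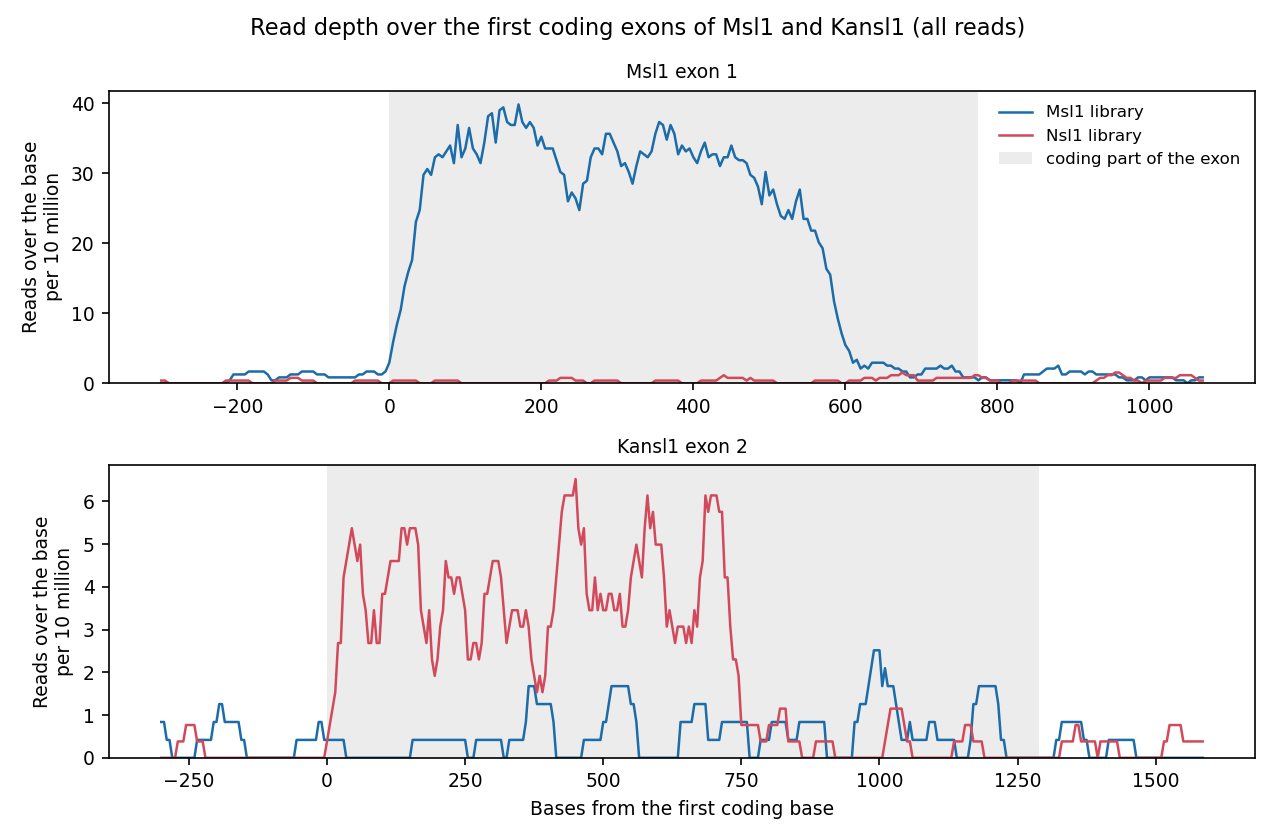
Reads over each base per 10000000 reads of the library, all reads kept, against the distance in bases from the first coding base, for exon 1 of Msl1 (top) and exon 2 of Kansl1 (bottom). Blue is the Msl1 library, red the Nsl1 library, and grey the coding part of the exon. The Msl1 reads fill 630 bases of exon 1 of Msl1, whose coding part goes on for 145 bases more, and the Nsl1 reads over exon 2 of Kansl1 lie mostly in its first 800 coding bases.

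The exons were also set beside those of all protein-coding genes that held at least 20 reads inside. This filter uses the reads whose excess is ranked, so short exons enter mostly where they hold an excess. The shares and ranks thus describe the exons that entered and not all exons. Of 2764 coding exon parts with at least 20 reads in the Msl1 library, 7.38% had 3 times the density of their flanks or more, and exon 1 of Msl1 held rank 4 with 22.9. Of 2606 such parts in the Nsl1 library, 5.03% did, and exons 11, 10, 14, 15, 13 and 2 of Kansl1, held ranks 4 to 9. Their order rests on few flank reads: exon 11, at 74.0 (12.5 to 3001), and exon 10, at 46.0 (7.47 to 1895), had 1 flank read each, whereas exon 14 had 31.7 (14 to 88.5) and exon 2 had 13.6 (9.31 to 20.5). Exon 12 of Kansl1 had too few reads to enter this count. Among the other members the coding exon of Msl2 with 29 Msl1 reads was the one that entered the count, at a ratio of 1.29. Summed over the coding exons after exon 1, the inside-over-flank ratio of Msl2, Myst1 and Wdr5 lay between 0.974 and 1.5 in the 2 libraries, with every interval including 1. That of Phf20 was 0.944 (0.609 to 1.44) for Msl1 and 0.539 (0.328 to 0.854) for Nsl1, and 75.1% and 65.7% of its coding words of read length occur once in mm9. For Msl1, exons 2 to 9 gave 0.938 (0.472 to 1.78) in the Msl1 library and 1.92 (1.07 to 3.47) in the Nsl1 library, the latter from 25 reads inside and 26 in the flanks.

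**Figure D3:**
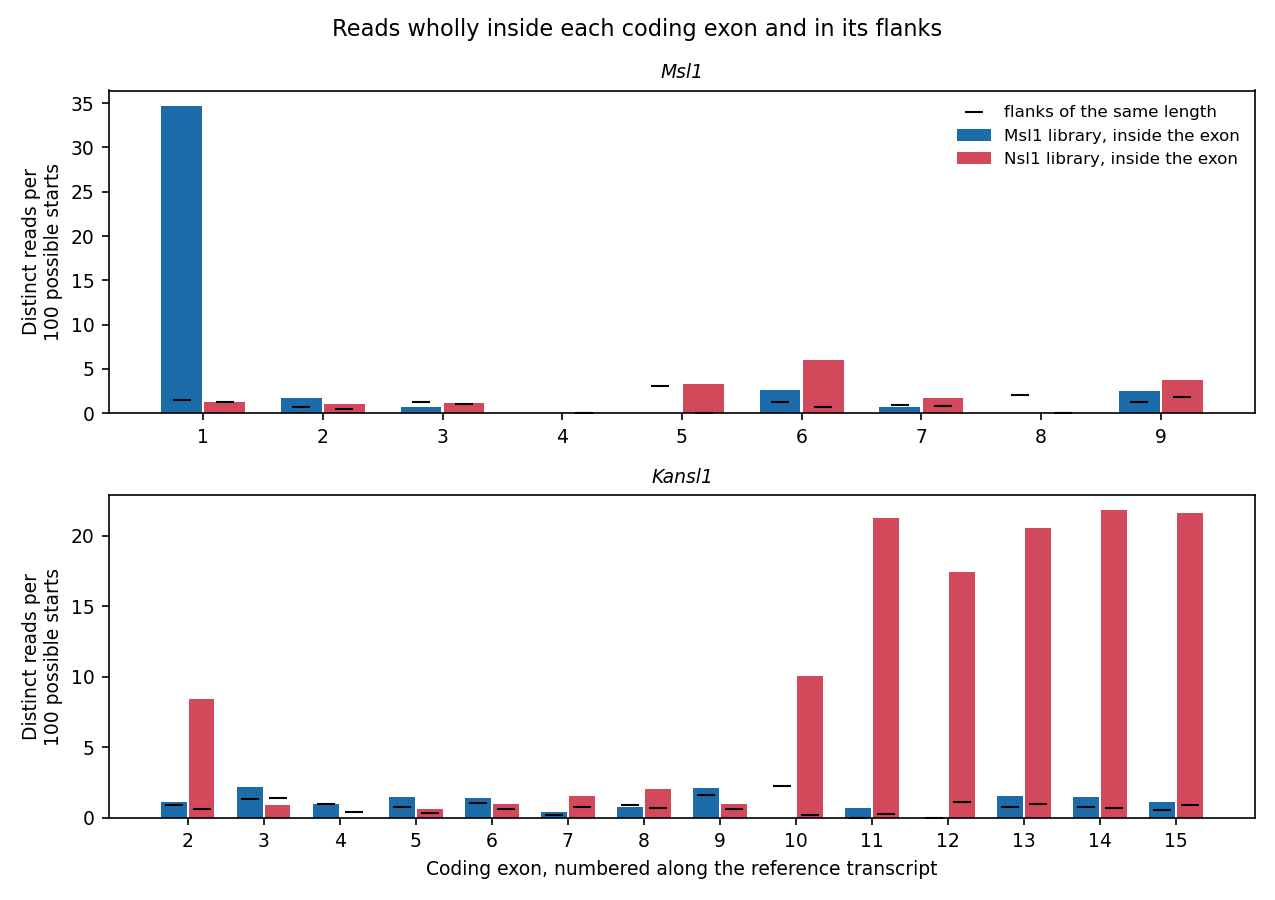
Distinct reads per 100 possible starts wholly inside each coding exon (bars) and in flanks of the same length (black dashes), for Msl1 (top) and Kansl1 (bottom), with the Msl1 library in blue and the Nsl1 library in red. In Msl1 the tall bar is exon 1 in the Msl1 library; in Kansl1 the tall bars are exons 2 and 10 to 15 in the Nsl1 library, with the Msl1 library at or near the flanks.

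Msl2, the ubiquitin ligase subunit of MSL, has 1 annotated TSS, on the plus strand of chromosome 9 at 100978451. The Msl1 library held 52 reads there, a ratio of 5.70 (4.22 to 7.55) at the 98.0th percentile of all protein-coding genes. The Nsl1 library held 40 reads, a ratio of 3.64 (2.59 to 5.0) at the 82.2nd percentile. This Nsl1 ratio was 1.82 (0.870 to 3.36) with a window of 250 bases on each side and 2.10 with 2000 bases. The highest stretches of the 2 libraries lay on opposite sides of the TSS, and each library also had reads on the other side. From 1000 to 500 bases upstream, each bin of 100 bases held 3 to 7 Msl1 reads. For Msl1, 43 of the 52 reads were downstream of it and the highest 300 bases ran from 200 to 500 bases downstream, with 35 reads. For Nsl1, 27 of the 40 reads were upstream and the highest 300 bases ran from 600 to 300 bases upstream, with 31 reads. Directly before this TSS the mm9 assembly has a gap of 100 unknown bases, so reads there could not be placed, and 84.3% of the 50-base words and 86.0% of the 36-base words of the window occur once. The known bases before the gap, chr9:100978201-100978350, are shown because they lie between the TSS and the Nsl1 reads, with GGGCGG in capitals.
Msl2, upstream: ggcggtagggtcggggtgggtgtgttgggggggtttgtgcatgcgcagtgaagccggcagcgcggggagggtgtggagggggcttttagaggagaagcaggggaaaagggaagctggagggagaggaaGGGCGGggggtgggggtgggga

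Myst1 (Kat8) encodes Mof, the enzyme that both complexes share, and has 1 annotated TSS, on the plus strand of chromosome 7 at 135056031. The Nsl1 library held 57 reads there, a ratio of 3.28 (2.47 to 4.27) at the 78.9th percentile, and 32 of them fell in the 300 bases from 200 upstream to 100 downstream. The Nsl1 ratio was 5.06 with a window of 250 bases on each side, and 1.96 and 1.31, both below 3, with 1000 and 2000 bases. The Msl1 library held 20 reads, a ratio of 1.07 (0.654 to 1.66) at the 24.6th percentile. Per read of each library, the Msl1 reads were 0.448 times the Nsl1 reads (0.255 to 0.757), whereas the median of this quotient over 17439 genes, those whose 2 libraries summed to 20 reads or more, was 1.06.

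Mcrs1, a forkhead-associated domain protein of NSL, showed the highest Nsl1 ratio of the members with windows of 250 and 500 bases on each side, and Msl2 the highest with 1000 and 2000 bases. Its TSS is on the minus strand of chromosome 15 at 99082392. The Nsl1 library held 75 reads, a ratio of 4.88 (3.81 to 6.16) at the 89.6th percentile, with 50 of them from 100 bases upstream to 200 downstream. The Nsl1 ratio was 8.06 with 250 bases on each side, and 2.93 and 1.95, both below 3, with 1000 and 2000 bases, where that of Msl2 was 3.10 and 2.10. The Msl1 library held 31 reads, a ratio of 2.23 (1.51 to 3.18), and its highest 300 bases lay from 800 to 500 bases upstream, with 20 reads. The quotient of Msl1 over Nsl1 reads was 0.528 (0.336 to 0.812). Most of the coding bases of Mcrs1 are repeated elsewhere in mm9, where 25.3% of the 50-base words and 18.4% of the 36-base words of its coding exons occur once. Its coding exons held 7 Msl1 reads against 27 in their flanks and 1 Nsl1 read against 34. In the promoter window 81.8% and 80.6% of the words occur once.

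The bases before the TSSs of Myst1 and Mcrs1 are shown, since they are the members at which the highest 300 bases of Nsl1 reads took in the TSS, together with those of Wdr5. They were read from mm9 at chr7:135055781-135056030, chr15:99082393-99082642 (minus strand) and chr2:27370427-27370676. Capitals mark GGGCGG or its reverse CCGCCC, a motif bound by Sp factors, and CCGGAAG or its reverse, a motif bound by ETS factors.
Myst1, upstream: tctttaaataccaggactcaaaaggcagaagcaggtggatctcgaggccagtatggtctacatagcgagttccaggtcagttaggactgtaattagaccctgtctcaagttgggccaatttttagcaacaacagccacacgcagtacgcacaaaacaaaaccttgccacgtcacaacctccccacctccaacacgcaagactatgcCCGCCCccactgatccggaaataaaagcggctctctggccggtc
Mcrs1, upstream: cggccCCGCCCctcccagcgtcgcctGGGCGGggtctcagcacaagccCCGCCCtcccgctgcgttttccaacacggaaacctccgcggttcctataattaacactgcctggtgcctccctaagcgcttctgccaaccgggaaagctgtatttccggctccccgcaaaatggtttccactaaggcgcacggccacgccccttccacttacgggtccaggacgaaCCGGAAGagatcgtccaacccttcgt
Wdr5, upstream: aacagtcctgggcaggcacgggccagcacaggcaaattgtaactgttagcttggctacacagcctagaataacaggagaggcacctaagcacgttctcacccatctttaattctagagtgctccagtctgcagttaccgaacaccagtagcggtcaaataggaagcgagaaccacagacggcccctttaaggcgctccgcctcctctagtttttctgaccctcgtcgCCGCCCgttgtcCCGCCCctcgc

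In the 300 bases from 250 before to 50 after the reference TSS, and on either strand, GGGCGG was found in 6 of the 7 members, all but Phf20, and in 44.6% of 22359 promoters. The upstream TSSs of Phf20, described below, were not read for these letters. At Msl2 the 100 unknown bases before the TSS lie in the stretch searched, so none of the motifs given here could be found in them. CCGGAAG was found in Myst1 and Mcrs1 and in 10.9% of all promoters, and the match of Myst1 is not among the bases printed, which end at the TSS. The letters CACGTG (E-box), GCGCATGCG (NRF1), AAGATGGCG (YY1), CTCGCGAGA (Banp) and CTACAATTC (Ronin) were found in none of the 7, and in 7.75%, 2.10%, 1.93%, 0.890% and 0.465% of all promoters.

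Wdr5, a WD-repeat protein that NSL shares with the complexes that methylate histone H3, lies on the plus strand of chromosome 2 with its reference TSS at 27370677. Both libraries gave intermediate values there: 43 Msl1 reads, a ratio of 2.71 (1.95 to 3.67), and 58 Nsl1 reads, a ratio of 2.56 (1.93 to 3.32). Again 30 of the 43 Msl1 reads were downstream, with the highest 300 bases from 300 to 600 downstream (31 reads), and 37 of the 58 Nsl1 reads were upstream, with the highest 300 bases from 500 to 200 upstream (24 reads). The Nsl1 reads also reached across the TSS, with 6 to 9 reads in each bin of 100 bases from 500 upstream to 200 downstream. The Msl1 ratio was 0.881 in a window of 250 bases on each side, and the Nsl1 ratio was 1.28 (1.05 to 1.54) with 2000 bases. A TSS of a coding transcript 4604 bases downstream, 27375281, had a Msl1 ratio of 2.47 (1.74 to 3.41) and a Nsl1 ratio of 0.618 (0.337 to 1.04). The TSS 12615 bases downstream had 1.07 and 0.603.

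For Phf20, the methyl-lysine reader of NSL, the choice of TSS decided the value. The reference TSS, 156049103 on the plus strand of chromosome 2, had a Msl1 ratio of 1.08 (0.616 to 1.76) from 16 reads and a Nsl1 ratio of 1.16 (0.630 to 1.95) from 14 reads. This TSS is also the first coding base of its transcript, which has no annotated untranslated bases before its coding part. The 5 TSSs from 156022202 to 156022492, of which the nearest lies 26611 bases upstream, had Nsl1 ratios between 3.08 and 3.46, with 37 reads and 3.46 (2.42 to 4.81) at the highest, and Msl1 ratios between 1.87 and 2.08. The other 6 annotated TSSs had Msl1 ratios between 0.632 and 1.2 and Nsl1 ratios between 0.451 and 1.84. Over all 31 annotated TSSs of the 7 members, 3 reached a ratio of 3 in the Msl1 library, beside 21.9% of all annotated TSSs of protein-coding genes, and 8 in the Nsl1 library, beside 21.6%. Windows overlap where TSSs lie close together, and 5 of the 8 are the upstream group of Phf20.

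**Figure D4:**
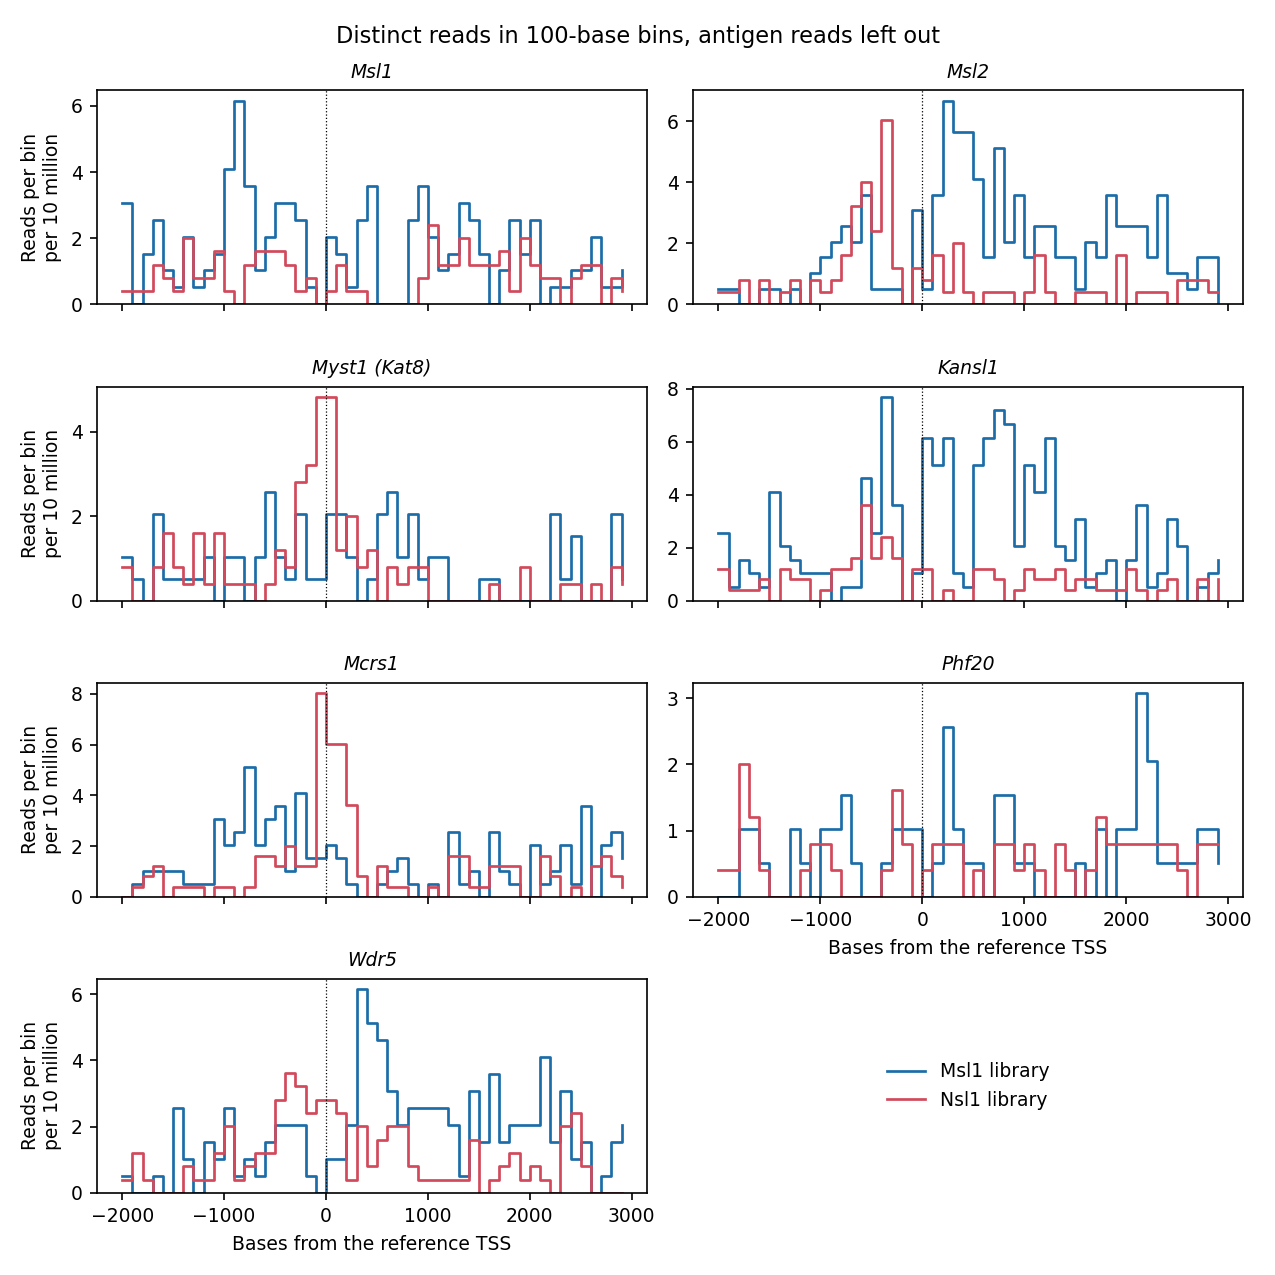
Distinct reads per 100-base bin per 10000000 reads of the library, from 2000 bases upstream to 3000 bases downstream of the reference TSS (dotted line), for the 7 members, with antigen reads left out. Blue is the Msl1 library and red the Nsl1 library. In the gene Msl1 the bins from 500 to 800 bases downstream, where antigen reads were left out, hold 0 reads in both libraries. At Msl2 and Wdr5 the Msl1 reads rise downstream of the TSS. The Nsl1 reads rise upstream of it at Msl2, from upstream to across it at Wdr5, and over it at Myst1 and Mcrs1.

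Summed over the 7 members, the read density in the stretch 500 to 2000 bases past the TSS was 0.876 times (0.744 to 1.03) that within 500 bases of it in the Msl1 library and 0.399 times (0.328 to 0.485) in the Nsl1 library. In the gene Msl1 the antigen bases reach 944 bases past the TSS, and neither stretch was shortened for the reads left out there. Over all protein-coding genes the same quotients were 0.826 and 0.478, with the libraries in the same order. The highest 300 bases of the summed profile lay from 200 to 500 bases downstream for Msl1 and from 100 upstream to 200 downstream for Nsl1, and over all genes from 100 to 400 downstream and from 100 upstream to 200 downstream. With antigen reads kept, the Msl1 quotient of the members was 1.14 (1.01 to 1.29). Of the 2169 genes with at least 100 reads in each library within 2 kb, those whose profile over 80 bins of both libraries was most like the summed profile of the members were Smek1 (Pearson's r = 0.766), Rps21 (0.741) and Arf1 (0.736). The median r over these genes was 0.441, and the bins of 1 library share its depth and fragment length. The members, which are part of the sum and did not all reach 100 reads, differed in their own r. It was 0.185 for Phf20 and 0.356 for Msl1, below that median, and 0.468 for Myst1 and 0.480 for Mcrs1. For Kansl1, Wdr5 and Msl2 it was 0.668, 0.670 and 0.689.

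The Msl1 and Nsl1 reads were not in a fixed proportion over the members. Per read of each library and within 500 bases of the TSS, Kansl1 had 4.01 times (2.42 to 6.91) as many Msl1 as Nsl1 reads and Msl2 1.66 times (1.08 to 2.57). The gene Msl1, without reads wholly inside its antigen bases, had 3.03 times (1.65 to 5.83), a count that may still hold reads of the covered stretch. Phf20 had 1.46 times (0.668 to 3.23) and Wdr5 0.947 times (0.623 to 1.43), and their intervals held the median of 1.06 over all genes. The 2 members with the highest quotients also had the most G and C in the 300 promoter bases, 75.7% for Kansl1 and 79.3% for Msl1, against 62.7% for Mcrs1, 53.0% for Myst1 and a median of 55.7% over all promoters. Among the other genes described below this did not hold: Kansl3 had a quotient of 3.08 at 46.7%, Ogt 3.32 at 52.0% and Msl3 1.0 at 75.3%. Over all genes the median quotient was 1.60 at 2652 promoters with 70% or more of G and C, and 0.982 at the 14787 others. The part of base composition in the result was not tested.

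Other genes were read in the same way from a list of 6, made of 5 further subunit genes and 1 paralogue: Msl3 of MSL, the NSL genes 2310037I24Rik (Kansl2), 4632411B12Rik (Kansl3), Hcfc1 and Ogt, and Phf20l1, which resembles Phf20 and is not counted here as a subunit gene. In the Msl1 library 6 of 6 reached a ratio of 3, with a median of 4.31, beside 23.6% of all genes. In the Nsl1 library 3 of 6 did, Msl3, Hcfc1 and Phf20l1, with a median of 3.33, beside 24%. Hcfc1, which encodes host cell factor, had the highest Msl1 ratio, 7.58 (5.72 to 9.87) from 60 reads, and a Nsl1 ratio of 3.76 (2.44 to 5.56) from 26 reads. Msl3, the chromodomain subunit of MSL, had 5.29 (3.09 to 8.5) and 5.63 (3.53 to 8.59), from 18 and 23 reads. Ogt, the glycosyltransferase, had 5.35 (3.77 to 7.40) and 2.89 (1.61 to 4.82). These 3 genes lie on the X chromosome, where the level of the whole chromosome was 3.10 reads per kb in the Msl1 library and 3.71 in the Nsl1 library, against 7.34 and 9.37 over the genome. Kansl3 had a Msl1 ratio of 3.34 (2.38 to 4.56) and a Nsl1 ratio of 1.33 (0.774 to 2.14) at its reference TSS, and 1.22 (0.681 to 2.02) and 2.38 (1.60 to 3.41) at the TSS 1167 bases upstream. Within each library, the Nsl1 ratio of Kansl3 was thus higher at the upstream TSS than at the reference TSS, and the Msl1 ratio lower. The same held between the reference TSS of Kansl1 and the TSS 415 bases upstream. At that upstream TSS of Kansl1, unlike at that of Kansl3, the Msl1 ratio was above the Nsl1 ratio, 2.94 against 2.29.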

How the data were processed

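Chromatin of wild type mESCs was sequenced after precipitation of Msl1 or of Nsl1, single-end, with 1 library each. Per the labels, the Msl1 library was made with a NEXTFlex kit and the Nsl1 library with a NEBNext kit, and the submitters' processing notes name CASAVA 1.8.2, Bowtie 0.12.7 and mm9. The authors aligned the reads to mm9 and kept unique reads. They deposited 1 line per read with its position and strand. The score that the authors deposited is 255 on every line and was not used. Repeated positions had been kept, and copies of an earlier position and strand made up 18.3% of nuclear reads for Msl1 and 4.56% for Nsl1.

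Reads were counted here in Python 3.11.15 with scipy 1.17.1, pandas 2.3.3 and numpy 2.4.6, and plotted in matplotlib 3.10.9. One read was kept per position and strand, and mitochondrial reads were left out. The fragment length was the distance between 80 and 400 bases with the most strand pairs on chromosomes 16, 17 and 19. TSSs, exons and coding bases came from GENCODE M1 on mm9, and all sequences from the mm9 genome. Antigen reads were those wholly inside the antigen bases of 1 exon. The antigen of Msl1 was placed by its stated residues and that of Nsl1 by the listed primers. The source thus differed between the genes, and in each the source used gave the higher density over the flanks. In the Msl1 library the gene Msl1 had 21.5 with the residues and 0.636 with the primers. In the Nsl1 library Kansl1 had 33.8 with the primers and 22.1 with the residues. These densities therefore do not come from 1 rule for both genes. Flanks were windows of the same length directly on both sides. A word of read length was called unique when its exact letters occur once on both strands of mm9, whereas Bowtie also allows mismatches. Intervals are exact conditional binomial intervals for 2 counts and cover counting error only, since PCR copies are not independent molecules.

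The named genes are the 7 members, the list of 5 other subunit genes and the paralogue Phf20l1, any gene with a TSS within 1 kb of theirs, and the 3 genes with the most similar profile. The members and lists were chosen with earlier results of these data known. With 1 library per antibody the values are descriptive and carry no p-value. Of the 9 markers of other cell types, Map2 was not found under this name. The window depths of the members, between 14 and 75 reads, limit the precision of their ratios.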

Additional observations from a re-analysis of the deposited data

How the results depend on the processing

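Of 65 alternative values of the main results, 48 stayed within the counting interval of the value reported or within 1.5 times the count, 15 moved further, and 2 moved to the other side of 1 from a value whose interval excluded 1. Of 112 alternative values of single genes and libraries, 86, 24 and 2 did so. Values whose own interval held 1, such as those of Phf20, also crossed 1 under some settings and are counted with those that stayed or moved. The ratio of the gene Msl1 in the Msl1 library was 0.954 with a window of 250 bases, and there the ratio of Wdr5 was 0.881. The density over the antigen of Msl1 in the Msl1 library was 0.636 when the listed primers set the bases, an alternative added after seeing the data.

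The number of members at 3 times the local level or more in the Nsl1 library was 1 instead of 3 with a window of 1000 bases, where 13.6% of all protein-coding genes reached it, and 0 with one of 2000 bases, where 4.10% did. At a ratio of 4 it was 1, beside 15.3%. In the Msl1 library the number was 5 against the genome level, beside 42% of all genes, and 1 at the most upstream TSS, beside 23.2%. It was 4 at a ratio of 2, beside 45.8%, and 1 at a ratio of 4, beside 9.98%. Against the genome level, the ratio of the gene Msl1 in the Msl1 library was 5.17 and that of Kansl1 in the Nsl1 library 2.24. With antigen reads kept, the first was 8.49 and the downstream quotient of the members in the Msl1 library was 1.14. That quotient was 0.723 from 1000 to 2000 bases downstream. With all reads kept, the density over the antigen of Msl1 in the Msl1 library was 34.9. The density over the antigen of Kansl1 in the Nsl1 library was 6.92 with flanks 500 bases away, where 49 of the 78 flank reads lay in other blocks of the antigen, and 12.2 for reads with their 5′ end in a block.

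No paired analysis was possible because each antibody had 1 library. The 2 libraries also differ in kit, read length and depth, which cannot be told apart from the antibody. No Input was used here, so uneven coverage of GC-rich promoters was not corrected.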
